A study of Bos taurus with 6 samples.

Results

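EGR1, EGR2, EGR3, NR4A1, NR4A2 and NR4A3, the immediate early transcription factors of the EGR and NR4A families, were followed in isolated bovine primordial follicles (PMF) before and after culture. The 6 genes were chosen by name from the 2 families, with their levels at T16 and T0 in these libraries already known, so those levels and their ratios are a description and carry no test. All 6 were found among 23704 genes with a matched RefSeq transcript, and all 6 passed the filter of at least 10 counts in at least 3 libraries. RNA-seq libraries were made from pools of mechanically isolated PMF, each a small oocyte with its flattened pre-granulosa cells: 3 pools after 16 h of culture (T16) and 3 pools retrieved at collection (T0). The T0 pools were taken to be the PMF of the study's methods, isolated from ovaries of Holstein Friesian cows aged 1 to 2 years by mincing, homogenising and sieving the cortex. By those methods the follicles then spent 1 h in medium with insulin, transferrin, selenium and FSH before lysis, and the T0 values therefore come after the isolation steps as well. The medium of the 16 h culture is not given in the sources used here, and although the study's methods call the pools biological replicates, which animals went into which pool is not given either, so the spread between libraries may be partly technical.

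Immediate early genes are transcribed within minutes of a stimulus, without new protein synthesis, and their short-lived mRNA falls again soon after. Growth factor receptors reach them through the ERK kinase cascade, which acts on the serum response factor SRF and its ETS partners, and cAMP and calcium reach them through CREB. The EGR proteins are zinc finger factors that bind GC-rich sites and are held back by the co-repressors NAB1 and NAB2. The NR4A proteins are orphan nuclear receptors whose activity follows their amount, since no classical ligand switches them on. In the ovary of rodents and other mammals, members of both families are induced in granulosa and theca cells by the gonadotropin surge, and they are also known to respond to tissue handling and dissociation.

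The libraries held 25761986 to 36703016 estimated counts at T16 and 22174653 to 30212698 at T0, with T0 replicate 3 the shallowest of the 6. All 20 oocyte markers had a TPM above 0 in every library, as did all but 2 of 14 granulosa markers, so transcripts of both cell types were detected in every library. Oocyte markers summed to 221 to 3251 TPM at T16 and 857 to 4488 TPM at T0, lowest in T16 replicate 2 and T0 replicate 1. Granulosa markers summed to 966 to 9162 TPM at T16 and 1433 to 9706 TPM at T0, highest in those same 2 libraries. The sums of smooth muscle and pericyte markers came close but did not overlap, at 30.7 to 109 TPM at T16 against 115 to 442 TPM at T0. Of these 8 markers, 3 lay below every T0 library and 0 above, beside 11.6% and 11.5% of all tested genes. In some library, 4 of the 8 were at 0. The sums of stroma (274 to 1656 and 1068 to 2443 TPM), endothelium (15.0 to 39.0 and 23.0 to 392 TPM) and theca markers (43.3 to 848 and 519 to 2649 TPM) overlapped. Immune markers were low (2.74 to 52.9 and 8.31 to 44.2 TPM), with CD2 and CD163 at 0 in all libraries, and of the 4 blood markers HBB, ALAS2 and AHSP were at 0 throughout. In such bulk samples, fewer cells of a type and less RNA per cell cannot be told apart.

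EGR1 was by far the most abundant of the 6 genes, and its level was much lower after culture. EGR1 is the founding member of its family and links ERK signalling to growth, wound and gonadotropin responses. It had 318, 329 and 159 TPM in T16 replicates 1, 2 and 3, against 956, 2870 and 2182 TPM in T0 replicates 1, 2 and 3. Every T16 library lay below every T0 library, and T0 replicate 1 was the lowest of its group. The mean was 269 TPM (SD 95.1, n = 3) at T16 and 2003 TPM (SD 969, n = 3) at T0, a log2 fold change of -2.78. Ranked by TPM among all genes, EGR1 stood between places 531 and 1286 in the T16 libraries and at places 98, 13 and 22 in T0 replicates 1, 2 and 3. These values rest on 7893 to 10561 counts per library at T16 and 31148 to 113131 at T0.

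NR4A1 showed the largest difference among the 6 genes. It encodes NUR77, a receptor known for rapid induction by gonadotropins in steroid-producing cells and by antigen receptors in lymphocytes. NR4A1 had 13.8, 7.44 and 7.83 TPM in T16 replicates 1, 2 and 3, against 75.5, 136 and 140 TPM in the T0 replicates in the same order. The groups lay far apart, and the lowest T0 library was again replicate 1. The mean was 9.69 TPM (SD 3.57, n = 3) at T16 and 117 TPM (SD 36.3, n = 3) at T0, a log2 fold change of -3.47, from 268 to 566 counts at T16 and 3020 to 6612 at T0. Of all genes tested, 1.78% had a lower log2 fold change than NR4A1 and 3.00% a lower one than EGR1.

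EGR2, known for its role in hindbrain and Schwann cell development, did not separate the groups. It had 46.2, 26.5 and 17.2 TPM in T16 replicates 1, 2 and 3, against 28.1, 49.1 and 124 TPM in T0 replicates 1, 2 and 3. T16 replicate 1 was above T0 replicate 1, and T0 replicate 3 stood above all others. The log2 fold change was -1.05, from means of 29.98 TPM (SD 14.8, n = 3) at T16 and 67.1 TPM (SD 50.4, n = 3) at T0.

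EGR3, which in mice is needed for muscle spindle development, was the least abundant of the 3 EGR members. It had 1.29, 2.23 and 2.41 TPM at T16, against 1.13, 2.95 and 7.19 TPM at T0, from 81 to 216 and 68 to 397 counts. Its T16 values all lay inside the range of T0, and the log2 fold change was -0.72.

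NR4A2, or NURR1, best known from dopamine neurons, had 5.14, 6.81 and 3.61 TPM at T16, against 8.57, 5.69 and 30.3 TPM at T0. T0 replicate 3 was more than any other library, and T0 replicate 2 lay below T16 replicate 2. The log2 fold change was -1.37.

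NR4A3, or NOR1, was the only one of the 6 with a positive log2 fold change, 0.24. It had 4.57, 3.40 and 1.06 TPM at T16, against 1.10, 1.25 and 5.85 TPM at T0. The highest and the lowest library came from different groups but the groups overlapped almost fully, and its mean of 3.01 TPM (SD 1.79, n = 3) at T16 lay within 1 SD of the 2.73 TPM (SD 2.70, n = 3) at T0.

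**Figure D1:**
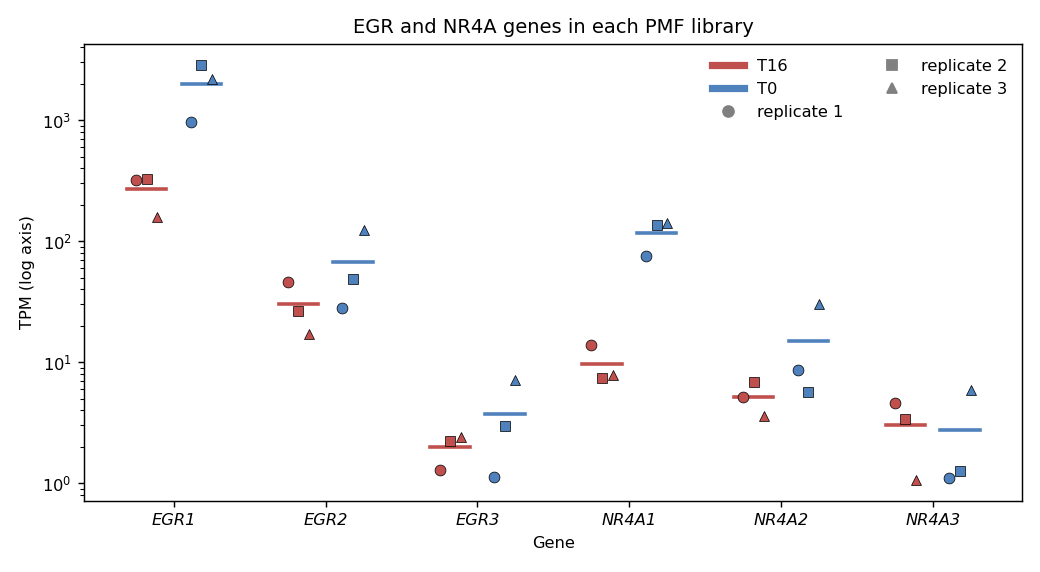
TPM of each gene (log axis) in the 3 T16 libraries (red) and the 3 T0 libraries (blue); symbols give the replicate and horizontal lines the group means. EGR1 (159 to 329 TPM at T16, 956 to 2870 TPM at T0) and NR4A1 separate the groups, and T0 replicate 3 is the highest library for the other 4 genes.

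As a count, 2 of the 6 genes (EGR1 and NR4A1) had every T16 library below every T0 library, where 11.6% of all tested genes did, and 0 had every T16 library above, where 11.5% of all tested genes did. By edgeR's quasi-likelihood test over 14639 genes, 0 of the 6 passed an FDR of 0.05 in either direction, beside 0.00683% of all genes called lower and 0.0342% called higher. EGR1 and NR4A1 had an unadjusted p under 0.05 and were lower, as 5.14% of all genes did, and DESeq2 called these 2 lower, beside 2.95% of all genes it tested. edgeR without the count filter called NR4A1 alone. Because the genes were chosen with this contrast in view, these counts support nothing further. The median log2 fold change of the 6 was -1.21, against -0.08 over all genes tested. Leaving libraries out can only keep or raise the number of genes below every T0 library, and these settings were chosen after seeing the data. Without T0 replicate 1, 4 of the 6 were below every T0 library, beside 24.0% of all genes. With any other single library left out, 2 or 3 of the 6 were. Without T0 replicate 1 and T16 replicate 2, the libraries with the fewest oocyte transcripts, 5 of the 6 were, beside 34.2% of all genes.

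For EGR1 and NR4A1, every T16 library lay below every T0 library, so leaving 1 library out could not reverse their direction. They kept most of their size with any 1 library left out, whereas the other members moved with T0 replicate 3. With each library left out in turn, the log2 fold change of EGR1 lay between -3.07 and -2.58 and that of NR4A1 between -3.84 and -3.29. Without T0 replicate 3, the log2 fold change was -0.37 for EGR2, 0.03 for EGR3, -0.36 for NR4A2 and 1.33 for NR4A3, and the median of the 6 was -0.37. NR4A3 turned negative without T16 replicate 1 (-0.28), T0 replicate 1 (-0.09) or T0 replicate 2 (-0.26). T0 replicate 3 was the library with the highest sum of oocyte markers (4488 TPM), the lowest sum of granulosa markers at T0 (1433 TPM) and the lowest depth (22174653 counts), and the part of these in the values was not tested. Without both oocyte-poor libraries, the log2 fold change was -3.21 for EGR1, -1.28 for EGR2, -1.17 for EGR3, -3.47 for NR4A1, -1.77 for NR4A2 and -0.18 for NR4A3, which thus turned negative there too.

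**Figure D2:**
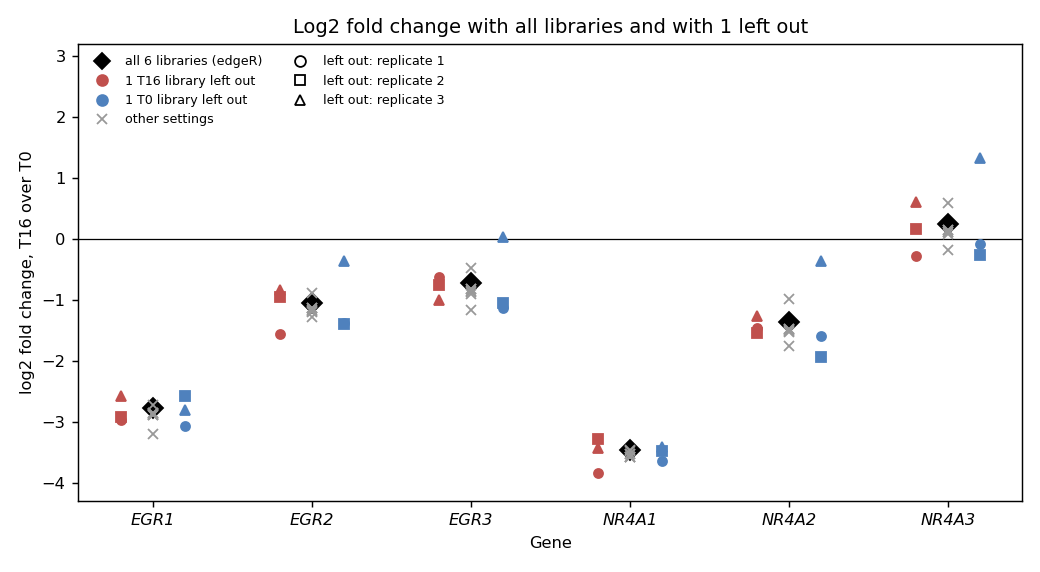
Log2 fold change of T16 over T0 for each gene (y axis) with all 6 libraries (black diamonds), with 1 T16 library (red) or 1 T0 library (blue) left out, the symbol naming the replicate, and under other settings (grey crosses). EGR1 and NR4A1 stay at -2.58 or lower, and the blue triangles (T0 replicate 3 left out) are highest for EGR2, EGR3, NR4A2 and NR4A3, reaching 1.33.

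The order of the 6 genes by level was not the same in the groups. At T16 the order by mean TPM was EGR1, EGR2, NR4A1, NR4A2, NR4A3 and EGR3, at 269, 29.98, 9.69, 5.19, 3.01 and 1.97 TPM. At T0 it was EGR1, NR4A1, EGR2, NR4A2, EGR3 and NR4A3, at 2003, 117, 67.1, 14.8, 3.76 and 2.73 TPM. EGR1 stood apart from its neighbour in both groups, its lowest library at 159 TPM at T16 and 956 TPM at T0. At T16, EGR2 also lay above NR4A1 in all libraries (lowest 17.2, highest of NR4A1 13.8 TPM), and NR4A1 above NR4A2 (lowest 7.44, highest of NR4A2 6.81 TPM). Every other pair of neighbours overlapped, that is NR4A2 with NR4A3 and NR4A3 with EGR3 at T16, and all 4 pairs below EGR1 at T0. Within single libraries the order was steadier: it was the same in all 3 T0 libraries, and in the T16 libraries it differed only in that NR4A3 lay below EGR3 in replicate 3, with NR4A2 above NR4A3 in all 3. EGR1 made up 87.0% to 92.0% of the summed TPM of the 3 EGR genes at T16 and 94.3% to 98.2% at T0. NR4A1 made up 42.1% to 62.6% of the summed TPM of the NR4A genes at T16 and 79.6% to 95.1% at T0, so these ranges did not overlap. Together the 6 genes held 191 to 389 TPM at T16 and 1071 to 3065 TPM at T0.

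The transcripts of NR4A1 were spread differently in the 2 groups. The files list 5 matched transcripts of NR4A1, 2540 to 2606 bases long, of which NM_001075911.1 was at 0 in all libraries. XM_005206219.3 held 50.5%, 72.4% and 90.9% of the NR4A1 TPM in T16 replicates 1, 2 and 3, against 65.8%, 88.2% and 89.2% in T0 replicates 1, 2 and 3, and was the leading transcript in every library. XM_010804908.3 had 0 counts in all 3 T16 libraries, against 327, 429 and 373 counts in the T0 libraries. XM_005206221.1 likewise had 0 counts at T16, against 460, 313 and 145 at T0. Together these held 26.6%, 11.5% and 10.4% of NR4A1 TPM at T0. XM_005206220.4 made up the rest, with 278, 73.6 and 43.2 counts at T16 against 229, 23.6 and 21.4 counts at T0. Its share of NR4A1 TPM was 49.5%, 27.6% and 9.09% at T16, against 7.61%, 0.36% and 0.42% at T0, without overlap. A count of 0 allows up to 0.116, 0.130 and 0.0906 CPM in T16 replicates 1, 2 and 3, for counting error only. The transcripts are close in length and reads of 50 bases were shared out among them by estimation, so a 0 here is an estimated share and not an observation of absence.

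**Figure D3:**
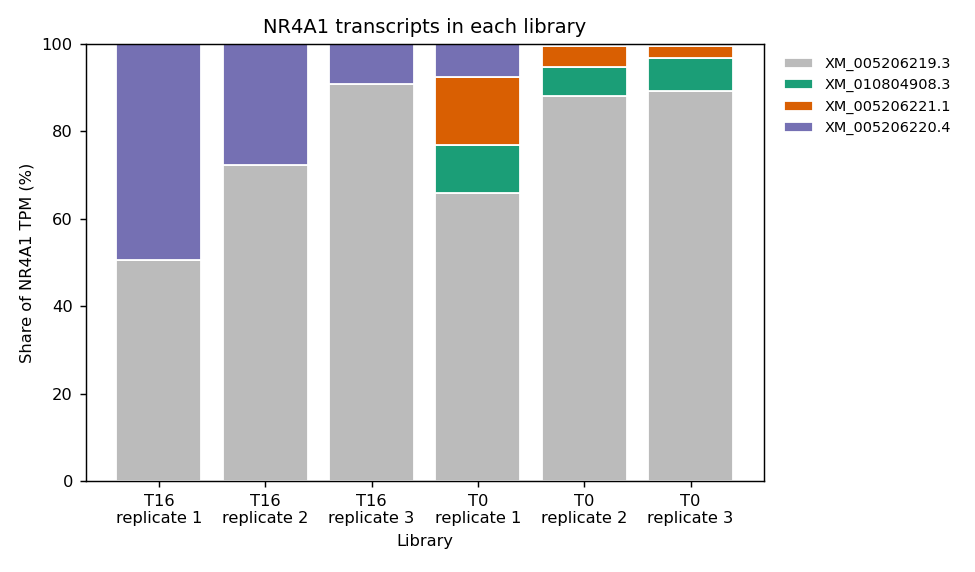
Share of NR4A1 TPM (y axis, %) held by each of 4 transcripts in the 3 T16 and 3 T0 libraries; each bar sums to all of NR4A1, and the transcript at 0 in every library is left out. XM_010804908.3 and XM_005206221.1 have a share in the T0 bars alone, 10.4% to 26.6% together.

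The other genes gave less to see at this level. EGR1 has a single matched transcript. EGR2 has 2, of which XM_015460987.2 held 63.7% to 87.9% of the TPM at T16 and 82.3% to 88.6% at T0. Nearly all TPM of EGR3 came from XM_003586408.5, at 89.2% to 100% at T16 and 95.5% to 97.5% at T0. NR4A2 has 7 matched transcripts, of which XM_005202477.3 held 52.6%, 47.3% and 58.5% of the TPM in T16 replicates 1, 2 and 3, against 29.6%, 33.4% and 65.3% in the T0 replicates. XM_005202480.4 of NR4A2 had 0 counts in all T16 libraries, against 39.7, 55.9 and 71.1 counts at T0. These are small counts, and no single transcript of NR4A2 led in every library. NR4A3 has 4 matched transcripts, and XM_005210213.4 held 90.4% to 100% at T16, and at T0 it held 0%, 75.6% and 100% in replicates 1, 2 and 3.

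The 6 genes were also compared by their pattern across the 6 libraries. Likeness was measured as the root mean square difference of log2 CPM, each gene centred on its own mean over the 6 libraries, so that 0 means the same pattern. The closest of the 15 pairs crossed the families: EGR1 with NR4A1 (0.56) and EGR2 with NR4A2 (0.59), and the most distant was NR4A1 with NR4A3 (2.13). EGR2 lay closest to the mean pattern of the 6 (0.32) and NR4A1 farthest from it (1.15). That mean pattern was -0.48, -0.59 and -0.97 in T16 replicates 1, 2 and 3, against 0.03, 0.42 and 1.58 in T0 replicates 1, 2 and 3. Of 10245 genes whose average log2 CPM was 3 or more, the nearest to it was JUNB (0.20), an AP-1 subunit and itself an immediate early gene, followed by CYP4V2 (0.21), LOC112441511 (0.24), FBXL4 (0.28) and NUDT16 (0.30). JUNB had 326, 214 and 184 TPM at T16, against 321, 515 and 1494 TPM at T0. Like EGR2, it overlapped between the groups and peaked in T0 replicate 3. Of these 5 genes, 0 were among the nearest 5 when T0 replicate 3 was left out.

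**Figure D4:**
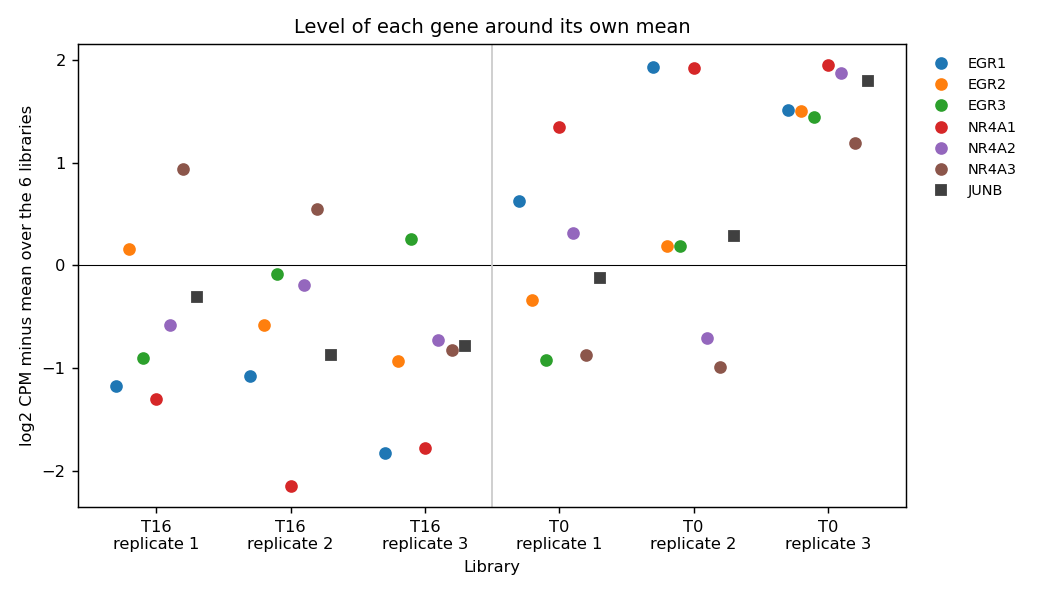
Log2 CPM of the 6 genes (circles) and of JUNB (black squares) minus each gene's mean over the 6 libraries (y axis), by library, with T16 left and T0 right of the vertical line. EGR1 and NR4A1 are below -1 in all T16 libraries and above 0 in all T0 libraries, and all 6 genes are above 1 in T0 replicate 3.

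The genes around these factors were read from 8 lists of 130 genes, none of them a member, of which 118 were tested. By edgeR, 0 of the 118 passed the FDR over all genes in either direction, while 15 higher and 12 lower genes had an unadjusted p under 0.05, where 8.61% and 5.14% of all genes did. DESeq2 called 10 of them higher, beside 4.07% of all genes, and 6 lower, beside 2.95% of all genes. The genes named below are all of the co-factors and, in each other list, genes among the 3 with the highest mean TPM. Those called by DESeq2 were named after their values were seen.

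Both co-repressors of the EGR proteins, NAB1 and NAB2, had every T16 library above every T0 library, as 11.5% of all tested genes did. They were 2 of 5 tested co-factors, of which 0 lay below every T0 library and 0 were called by either tool. NAB1 had 41.7, 42.3 and 31.3 TPM at T16, against 29.8, 13.8 and 20.1 TPM at T0 (log2 fold change 0.88, edgeR adjusted p = 0.381). NAB2, itself a known EGR1 target in human and mouse cells, had 34.4, 34.4 and 20.9 TPM at T16, against 17.9, 14.0 and 15.4 TPM at T0 (log2 fold change 0.96, edgeR adjusted p = 0.306). Neither passed the test. Of the RXR receptors, with which NR4A1 and NR4A2 can pair, RXRB was the main one at 40.5 to 46.4 TPM at T16 and 25.4 to 43.2 TPM at T0. RXRA had 0.527 to 3.60 and 1.23 to 3.46 TPM, and RXRG was listed at 0 in every library. EGR4, the remaining EGR gene, reached 0.937 TPM at T16, against 3.81 TPM in T0 replicate 1 and at most 0.0350 TPM in the other T0 libraries.

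Of 15 kinases that lead to these genes, 1 had every T16 library above every T0 library and 4 every one below, beside 11.5% and 11.6% of all tested genes, and the median log2 fold change was 0.02. MAP2K2, a kinase that activates ERK, overlapped between the groups, with 97.2 to 154 TPM at T16 and 111 to 140 TPM at T0. DESeq2 called 1 of the 15 kinases lower and 0 higher, beside 2.95% and 4.07% of all genes. This was RPS6KA5, or MSK1, which phosphorylates CREB and histone H3 at immediate early genes. RPS6KA5 had 9.84, 8.85 and 3.00 TPM at T16 against 12.4, 38.2 and 26.2 TPM at T0 (log2 fold change -1.77, edgeR adjusted p = 0.214).

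Of the 17 factors that act on the promoters of such genes, 5 had every T16 library above every T0 library and 0 every one below, beside 11.5% and 11.6% of all tested genes. DESeq2 called 1 of the 17 higher and 0 lower, beside 4.07% and 2.95% of all genes. That gene was ELK3, an ETS partner of SRF that can also repress. ELK3 had 260, 97.1 and 96.3 TPM at T16, against 20.2, 30.2 and 30.7 TPM at T0 (log2 fold change 2.82, edgeR adjusted p = 0.0872). ATF1, a relative of CREB1, had 101, 50.6 and 66.8 TPM at T16, against 26.6, 35.6 and 42.1 TPM at T0 (log2 fold change 1.20, edgeR adjusted p = 0.184). CREM, whose short form ICER represses cAMP-driven genes, had 14.3 to 48.6 TPM at T16 and 9.14 to 75.7 TPM at T0, highest in T0 replicate 3.

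Among 11 tested receptors that could feed these pathways, 3 had every T16 library below every T0 library and 0 every one above. Of all tested genes, 11.6% and 11.5% did. DESeq2 called 1 of the 11 lower, FSHR, and 0 higher, beside 2.95% and 4.07% of all genes. FSHR, the FSH receptor of granulosa cells, had 1.15, 3.46 and 0 TPM at T16, against 10.8, 45.6 and 28.3 TPM at T0 (log2 fold change -4.09, edgeR adjusted p = 0.293). FSHR is also one of the granulosa markers, of which 3 of 14 had every T16 library below every T0 library and 1 every T16 library above, beside 11.6% and 11.5% of all tested genes. PDGFRA (79.2 to 160 TPM at T16, 21.4 to 132 TPM at T0) and EGFR (10.5 to 27.7 and 8.96 to 15.7 TPM) overlapped between the groups.

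Genes that end the immediate early response were split. DESeq2 called 5 of the 13 higher, which were the ERK phosphatases DUSP4 and DUSP6 and the ERK pathway inhibitors SPRY2, SPRY4 and SPRED1, and 0 lower, beside 4.07% and 2.95% of all genes. DUSP6, whose product acts on ERK in the cytoplasm, had 367, 187 and 218 TPM at T16, against 91.4, 36.6 and 65.0 TPM at T0 (log2 fold change 2.03, edgeR adjusted p = 0.136). SPRY4 had 67.3, 38.4 and 19.7 TPM at T16, against 1.92, 0.865 and 6.01 TPM at T0 (log2 fold change 3.87, edgeR adjusted p = 0.107). Of the 13, 5 had every T16 library above every T0 library and 2 every one below, beside 11.5% and 11.6% of all tested genes. The 5 above were those called by DESeq2 in these same libraries, so their separation adds nothing to the calls. DUSP1 and ZFP36, which are themselves immediate early genes, went the other way without passing either test. DUSP1 had 3.17, 66.0 and 106 TPM at T16, against 547, 267 and 259 TPM at T0. ZFP36, which binds AU-rich elements and speeds mRNA decay, had 379, 229 and 264 TPM at T16, against 450, 507 and 2324 TPM at T0, highest in T0 replicate 3. ZFP36L2 overlapped, with 172 to 311 TPM at T16 and 239 to 375 TPM at T0.

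Of 29 other immediate early genes tested, 5 were below every T0 library and 3 above, beside 11.6% and 11.5% of all tested genes. The median log2 fold change was -0.39, and 0.15 without T0 replicate 3. FOS had the largest mean TPM of the list, with 74.1, 109 and 49.1 TPM at T16 against 742, 1657 and 3859 TPM at T0 (log2 fold change -4.60, edgeR adjusted p = 0.0872). DESeq2 called 3 of the 29 lower (FOS, JUN and BTG2) and 1 higher, beside 2.95% and 4.07% of all genes. The opposite was seen for FOSL1, a late member of the FOS family, with 433, 211 and 224 TPM at T16 against 11.4, 5.58 and 62.6 TPM at T0 (log2 fold change 3.59, edgeR adjusted p = 0.142), which DESeq2 called higher. IER2 overlapped, at 485 to 1543 TPM at T16 and 236 to 1093 TPM at T0.

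Genes with published EGR or NR4A binding, known mostly from human and rodent cells, did not move as 1 group. Of 17 tested EGR targets, 5 had every T16 library above every T0 library and 0 every one below, beside 11.5% and 11.6% of all tested genes, with a median log2 fold change of 0.41. DESeq2 called 3 of the 17 higher, among them CD44 and GDF15, and 0 lower, beside 4.07% and 2.95% of all genes. CD44, a hyaluronan receptor, had 16.9, 11.4 and 28.3 TPM at T16, against 3.42, 2.96 and 0.610 TPM at T0 (log2 fold change 3.17, edgeR adjusted p = 0.160). GDF15, a stress-induced member of the TGF-beta family, had 329, 40 and 129 counts at T16, against 0, 1 and 0 at T0. FN1, which encodes fibronectin, overlapped, with 0.00810 to 67.5 TPM at T16 and 44.4 to 84.7 TPM at T0. Of 15 tested NR4A targets, 0 were above every T0 library and 1 below, beside the same 11.5% and 11.6%. That gene was INSL3, also a theca marker, with 8.75, 33.7 and 20.0 TPM at T16 against 38.6, 108 and 159 TPM at T0 (log2 fold change -2.11, edgeR adjusted p = 0.234). DESeq2 called INSL3 alone of the 15, as lower, beside 2.95% of all genes. The steroidogenic genes, of which STAR and CYP11A1 are also theca markers, overlapped and varied widely within each group: STAR (28.4, 48.6 and 136 TPM at T16, 1268, 248 and 59.0 TPM at T0), CYP11A1 (2.74 to 763 and 298 to 1339 TPM) and HSD3B1 (14.6 to 1008 and 112 to 1008 TPM).

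**Figure D5:**
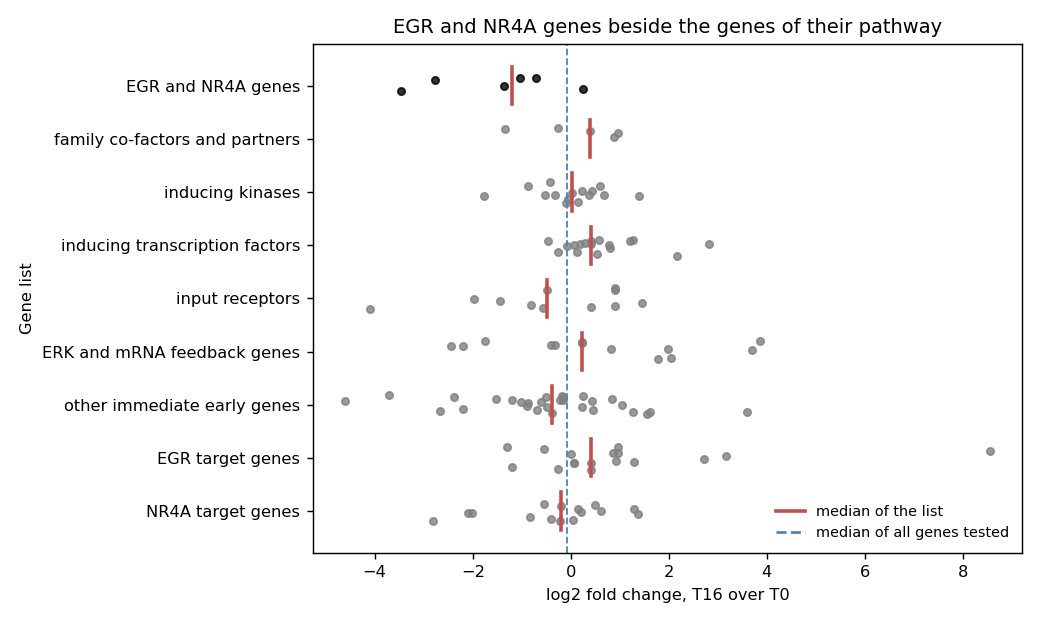
Log2 fold change of T16 over T0 (x axis) of each tested gene in the EGR and NR4A families (black) and in 8 lists of related genes (grey); red bars are list medians and the dashed line is the median of all genes tested, -0.08. The 6 genes have a median of -1.21, and the lists have medians between -0.49 (input receptors) and 0.41 (EGR targets); the point farthest right is GDF15, whose fitted value rests on 1 count at T0.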

How the data were processed

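For each library the authors deposited estimated counts and TPM per RefSeq transcript, obtained by Salmon quantification on the ARS-UCD1.3 bovine transcriptome after trimming (Trim Galore, fastp) of paired reads of 50 bases from SMART-Seq v4 cDNA. Here, 50205 of 76123 transcripts were matched by accession, without version, to gene symbols of a RefSeq table of ARS-UCD2.0, whose coordinates were not used; they held 89.1% to 90.3% of the counts. Counts were summed to genes and rounded, and TPM were summed. T16 was compared with T0 over 14639 genes by edgeR 4.0.16 (TMM, quasi-likelihood test, Benjamini-Hochberg FDR below 0.05, R 4.3.3), with DESeq2 1.42.0 as the alternative; log2 CPM used a prior count of 2. Adjusted p-values come from tests that set the difference between T16 and T0 against the spread between these pools. The procedure was tested on simulated data. The genes described and the lists were chosen with earlier results of these data known. Named list genes were all co-factors, any gene called by edgeR and the 3 with the highest mean TPM per list; nearest genes were the 5 with the smallest root mean square difference. A few genes that this rule takes are not reported here. Promoter sequences were not used here.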

Additional observations from a re-analysis of the deposited data

How the results depend on the processing

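Counts of called genes depended on the tool and on single libraries. The log2 fold changes of EGR1, EGR2, NR4A1 and NR4A2 were below 0 in all 13 alternatives, that of EGR3 in 12 and that of NR4A3 in 4. DESeq2 called 591 genes higher and 428 lower, against 5 and 1 by edgeR, and 10 higher and 6 lower in the related lists, against 0 and 0. Without the count filter edgeR called 4 genes lower, and with at least 30 counts in 3 libraries 2. With 1 library left out it called 0 to 2 genes higher and 0 to 1 lower, and 0 and 0 without both oocyte-poor libraries, a setting chosen after seeing the data. The number of the 6 genes below every T0 library was 2 to 4 with 1 library left out, also chosen after seeing the data, and 5 without both oocyte-poor libraries. Leaving libraries out can only keep or raise this number. The log2 fold change of NR4A2 was -1.93 to -0.36 with 1 library left out. Whether same-numbered libraries share animals is not given. Their deviations from the group mean correlated across genes at -0.445, -0.12 and -0.0047, and no library correlated best with its own number. Deviations within a group of 3 libraries depend on each other, so these correlations cannot decide whether libraries are paired. With the replicate block 0 genes were called higher and 0 lower. DESeq2 size factors, transcript length offsets and TPM rescaled to matched transcripts moved no value of the 6 genes by more than the spread between libraries. With CPM in place of TPM, the number of the 6 genes below every T0 library stayed at 2. Depth limits the low genes most, EGR3 having 68 counts in T0 replicate 1.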
